A study of Homo sapiens with 14 samples.

Results

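In naïve human embryonic stem cells, 16351 of 57853 BRG1 peaks had no BAF155 partner, and 20967 of 62338 BAF155 peaks had no BRG1 partner. BRG1 and BAF155 peaks on chromosomes 1 to 22 and X were paired when at least 25% of either peak was covered by the other. The remaining 41502 BRG1 peaks and 41371 BAF155 peaks formed 40634 concordant regions. Peaks with a partner are called BRG1 with BAF155 or BAF155 with BRG1, and peaks without one are called BRG1-only or BAF155-only. The discordant share was 28.3% of BRG1 peaks (95% interval 27.9 to 28.6%) and 33.6% of BAF155 peaks (33.3 to 34.0%).

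The series profiled BAF subunits and SOX2 by chromatin immunoprecipitation and sequencing (ChIP-seq) in WIBR3, an established human embryonic stem cell line, and the 6 peak lists used here hold 213507 peaks on these chromosomes. The labels name no genetic change or treatment of the cells. Naïve cells were converted from primed cells, expanded polyclonally and kept in 5i/L/A medium, which combines kinase inhibitors, LIF and activin A. Primed cells, used here only for comparison, were kept in serum-containing medium with FGF2, and both states grew on inactivated mouse feeder cells. BRG1 was precipitated with a commercial antibody and BAF155 with one made in an academic laboratory. Each list stands for a single library, which leaves every value without replicate error and allows no test over samples. Intervals are exact (Clopper-Pearson) for shares and Woolf intervals for odds ratios, and cover counting error only. A peak that is missing from a list fell below the authors' threshold, which is not the same as an absence of protein. Sequencing depth was not analysed here, and its part in the lengths of the lists was not tested.

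BAF complexes use ATP to move or evict nucleosomes. BRG1 (SMARCA4) is one of the alternative ATPases of the complex, the other being BRM (SMARCA2), whereas BAF155 (SMARCC1) is a core scaffold subunit onto which the complex is assembled. At the genes of naïve cells that were checked, apart from DNMT3L, both subunits had peaks at the promoter. At DNMT3L only the BAF155 list had a peak with its midpoint within 1 kb of a start site, and that peak had a BRG1 partner. TFAP2C, KLF17, DNMT3L, TFCP2L1 and SUSD2 each had a concordant peak at the promoter, while the promoter of DPPA5 held a BRG1 peak and a BAF155 peak that were not paired. Of all 19626 protein-coding genes 53.2% had a concordant promoter peak, so such pairing is not particular to genes of naïve cells.

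The strongest peaks of each group are shown by their sequence, as examples of the upper end of the groups only. Shown are the 200 bases at the midpoint of the peaks of highest fold (the authors' enrichment over input), 2 for each discordant group and 1 concordant, from the plus strand of hg38, with capitals for matches to any of 12 transcription factor motifs described further down. The first BRG1-only peak lay at chr2:235539883-235540090, in an intron of AGAP1, a regulator of endosome traffic, with a fold of 4.69. The second lay at chr1:33854252-33854420, 6.14 kb upstream of HMGB4, with a fold of 4.51. Neither window held a match.
BRG1-only, AGAP1: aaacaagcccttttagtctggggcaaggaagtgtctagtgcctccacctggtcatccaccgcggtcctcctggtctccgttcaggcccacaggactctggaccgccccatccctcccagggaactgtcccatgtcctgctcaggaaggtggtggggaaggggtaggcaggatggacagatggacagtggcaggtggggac
BRG1-only, HMGB4: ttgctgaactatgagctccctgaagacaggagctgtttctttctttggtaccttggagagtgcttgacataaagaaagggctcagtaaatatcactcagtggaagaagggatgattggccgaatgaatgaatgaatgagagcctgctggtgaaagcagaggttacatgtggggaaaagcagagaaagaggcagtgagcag
The first BAF155-only peak lay at chr1:7718086-7718367 in an intron of CAMTA1, a calmodulin-binding transcription activator, with a fold of 6.64, and holds a TEAD match. The second lay at chr1:204692773-204693181, 7.24 kb upstream of LRRN2, with a fold of 6.18, and holds KLF, TFAP2 and SOX matches.
BAF155-only, CAMTA1: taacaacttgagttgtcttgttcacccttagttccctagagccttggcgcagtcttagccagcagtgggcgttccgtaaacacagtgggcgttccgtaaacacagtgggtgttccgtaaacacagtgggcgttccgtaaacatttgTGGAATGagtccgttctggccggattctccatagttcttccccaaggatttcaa
BAF155-only, LRRN2: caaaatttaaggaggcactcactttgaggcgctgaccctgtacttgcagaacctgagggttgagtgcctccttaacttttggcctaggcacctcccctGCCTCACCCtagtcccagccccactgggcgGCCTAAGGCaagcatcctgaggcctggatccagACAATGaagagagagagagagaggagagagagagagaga
The strongest concordant regions, ranked by the lower of their BRG1 and BAF155 folds, were at S100A7A and CXXC5. The S100A7A region had folds of 10.1 for BRG1 and 9.98 for BAF155. The CXXC5 region, at chr5:139698635-139699243 for BRG1, had folds of 8.5 and 8.61 and holds 2 octamers, the element bound by OCT4 and other POU factors.
Concordant, CXXC5: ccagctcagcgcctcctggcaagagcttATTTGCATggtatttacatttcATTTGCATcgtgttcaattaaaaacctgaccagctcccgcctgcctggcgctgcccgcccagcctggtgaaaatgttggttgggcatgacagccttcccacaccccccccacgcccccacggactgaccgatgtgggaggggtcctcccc

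Motif shares separated the discordant kinds, and 4 further windows of 80 bases show the motifs concerned, capitals marking only the match named. They are the peaks of highest fold in their group with that match, with a gene within 20 kb and without mostly repeated sequence, and were chosen after the shares were known. The CTCF matches lie in BRG1-only peaks, at chr17:38735221-38735300 near the start of PCGF2, a Polycomb component, and at chr1:1302111-1302190 in an intron of ACAP3. The AP-1 match lies in a BAF155-only peak at chr12:8554591-8554670, 13.7 kb upstream of CLEC4E. The GATA match lies in a BAF155-only peak at chr19:52890057-52890136, at the promoter of ZNF320.
BRG1-only, CTCF match, PCGF2: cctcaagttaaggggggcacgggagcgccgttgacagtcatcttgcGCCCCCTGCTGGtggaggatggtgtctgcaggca
BRG1-only, CTCF match, ACAP3: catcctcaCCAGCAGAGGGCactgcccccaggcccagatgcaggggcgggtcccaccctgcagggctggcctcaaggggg
BAF155-only, AP-1 match, CLEC4E: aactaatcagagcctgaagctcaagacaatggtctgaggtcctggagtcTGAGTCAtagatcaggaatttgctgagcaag
BAF155-only, GATA match, ZNF320: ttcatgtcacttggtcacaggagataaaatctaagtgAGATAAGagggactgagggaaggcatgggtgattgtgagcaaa

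Discordant peaks were the weak and narrow end of both lists. The median width was 306 bp for BRG1-only and 552 bp for BRG1 with BAF155, and 332 bp for BAF155-only against 596 bp for BAF155 with BRG1. A width of at least 500 bp was reached by 24.6% of BRG1-only and 54.8% of BRG1 with BAF155 peaks (odds ratio 0.269, interval 0.258 to 0.280), and by 27.0% of BAF155-only and 58.5% of BAF155 with BRG1 peaks (odds ratio 0.262, 0.253 to 0.272). The discordant share of BRG1 peaks was 51% under 250 bp and 4.43% from 1000 bp up. For BAF155 it was 59.1% and 6.62%. The groups were formed by overlap, which a wide peak meets more easily, and the part of this in the width difference was not tested. With all peaks set to 500 bp at their midpoint before pairing, 21577 BRG1 and 26062 BAF155 peaks were discordant.

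The discordant share fell further over the range of q-values than over the range of folds. In the weakest of 10 equal groups by −log10 q, 67.8% of BRG1 and 73.3% of BAF155 peaks were discordant. In the strongest group the shares were 1.99% and 2.13%. By fold, the BRG1 share was 37.7% in the lowest group and 8.37% in the highest, with median folds of 2.82 for BRG1-only and 2.99 for BRG1 with BAF155. The folds of BAF155-only and BAF155 with BRG1 peaks had medians of 2.79 and 2.96, so the groups overlapped widely in this value.

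**Figure D1:**
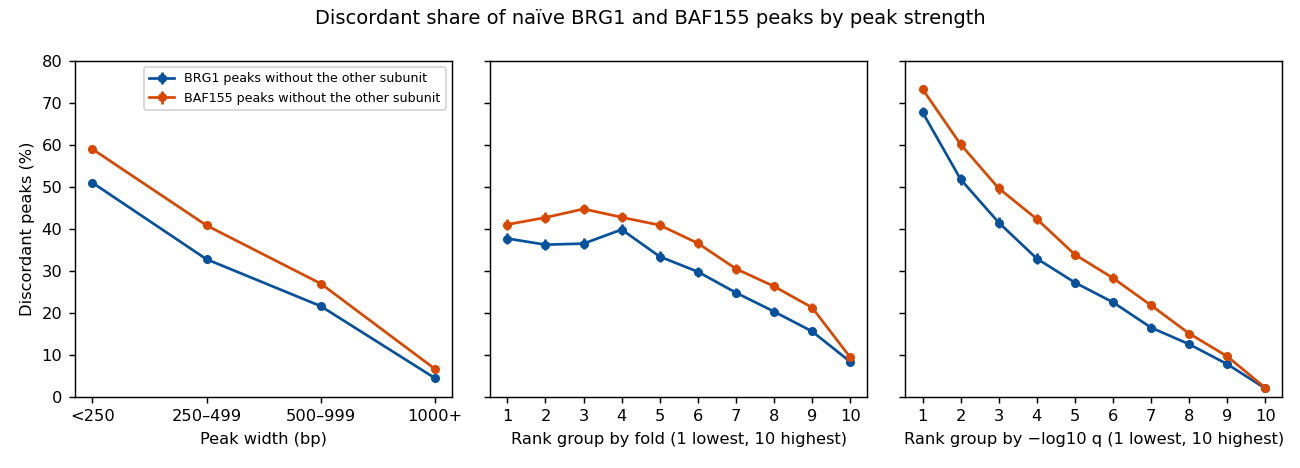
Percentage of naïve BRG1 (blue) and BAF155 (orange) peaks with no partner of the other subunit, by peak width in bp and by rank groups of the authors' fold and −log10 q; bars are exact 95% intervals. The share falls from 51% to 4.43% (BRG1) and from 59.1% to 6.62% (BAF155) over the width classes, and to 1.99% and 2.13% in the highest q group.

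Few discordant peaks were near misses of the pairing rule. Of the BRG1-only peaks 673 (4.12%) touched a BAF155 peak with less than 25% of each covered, as did 672 BAF155-only peaks (3.21%) with BRG1. A peak of the other subunit lay within 0.5 kb of 8.57% of BRG1-only and 6.89% of BAF155-only peaks. Within 20 kb the shares were 71.4% and 73.9%. The lists are dense and the share for random positions was not computed, so these values do not show closeness particular to discordant peaks. More than 100 kb away from the other list were 6.73% of BRG1-only and 4.35% of BAF155-only peaks. On either side of the rule's edge, 189 BRG1 peaks had a best coverage of 20% up to 25% and 190 had 25% up to 30%, with median widths of 440 and 446.5 bp and promoter shares of 26.5% and 35.8%. Among concordant regions, 39095 held exactly 1 peak of each subunit, and their midpoints lay a median of 96 bp apart. Over these regions the folds of both subunits had a Spearman correlation of 0.647 and the widths one of 0.615, across sites that share the input control.

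Discordant peaks were found less often at promoters than concordant ones, and over all strengths BAF155-only peaks least often. A promoter peak has its midpoint within 1 kb of an annotated transcription start site (TSS). The promoter share was 36.4% of BRG1 with BAF155 and 21.3% of BRG1-only peaks (odds ratio 0.473, interval 0.453 to 0.494). It was 36.5% of BAF155 with BRG1 and 17.2% of BAF155-only peaks (odds ratio 0.363, 0.348 to 0.378). Between the discordant kinds the odds ratio of BRG1-only against BAF155-only was 1.30 (1.23 to 1.37). Among stronger peaks this contrast was not held, with log2 odds ratios of 0.041 (−0.065 to 0.15) and −0.064 (−0.32 to 0.20) for lists cut to −log10 q of at least 3 or a fold of at least 4 before pairing, and 0.18 (−0.11 to 0.47) and 0.20 (−0.86 to 1.27) for such peaks in the whole-list groups. The median distance to the nearest protein-coding TSS was 9901.5 bp for BRG1 with BAF155, 19015 bp for BRG1-only, 9885 bp for BAF155 with BRG1 and 17717 bp for BAF155-only. Introns held 49.4% of BAF155-only peaks, more than the 42.4% of BRG1-only and the 34.8% of either concordant group. Intergenic sequence held 31.3% of BRG1-only, 29.2% of BAF155-only and 25% of either concordant group.

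**Figure D2:**
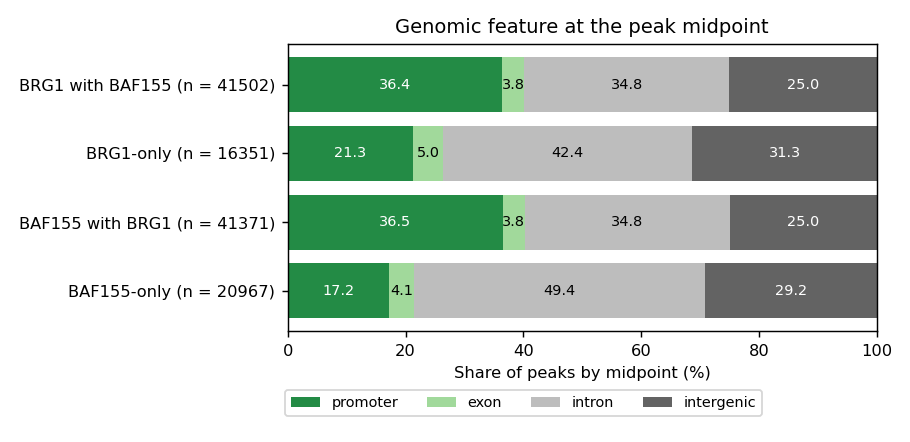
Share of peaks (%) whose midpoint lies at a promoter, in an exon, in an intron or in intergenic sequence, for the 4 groups of naïve peaks. Promoters fall from 36.4% to 21.3% between BRG1 with BAF155 and BRG1-only and from 36.5% to 17.2% between BAF155 with BRG1 and BAF155-only, and introns reach 49.4% in BAF155-only.

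The promoter difference held within each width class. Under 250 bp the promoter share was 20.5% of BRG1 with BAF155 and 16.9% of BRG1-only, against 21.6% of BAF155 with BRG1 and 14.4% of BAF155-only. From 500 bp up it was 47.1% and 28.1% for BRG1, and 45.5% and 22.2% for BAF155. Above the median −log10 q of the list it was 36.8% and 21.7% for BRG1, and 36.2% and 17.8% for BAF155. The direction turned when both lists were first cut to peaks with −log10 q of at least 3 and then paired (log2 odds ratio 0.16 for BRG1 and 0.11 for BAF155). Of the 5724 BRG1-only peaks that this cut produced, 80.7% had a BAF155 partner in the whole list, and with the groups of the whole lists peaks of that strength gave log2 odds ratios of −1.05 and −1.25.

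Protein-coding start sites made up a smaller share, though still most, of discordant promoters. Of the promoter peaks, the nearest TSS belonged to a protein-coding gene in 78.9% of BRG1 with BAF155 and 66.6% of BRG1-only, and in 78.6% of BAF155 with BRG1 and 68.7% of BAF155-only. Long noncoding RNA genes made up 21.8% of BRG1-only and 19.6% of BAF155-only promoter peaks, against 15.7% and 16.0% of the concordant groups. Pseudogenes made up 7.98% and 6.80%, against 3.24% and 3.20%. Of 19626 protein-coding genes, 10443 had a concordant peak within 1 kb of one of their start sites, 1128 a BRG1-only and 1080 a BAF155-only one as the sole kind, and 250 had both discordant kinds without a concordant peak.

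Base composition differed between BRG1-only and BAF155-only, with wide overlap (GC quartiles of 45% to 59% and 43% to 55%). In the 200 bp at the midpoint the median GC content was 54.0% in both concordant groups, 51.5% in BRG1-only and 49.0% in BAF155-only. At least 50% GC was reached by 58.4% of BRG1-only and 46.9% of BAF155-only peaks (odds ratio 1.59, interval 1.52 to 1.66). With both lists cut to −log10 q of at least 3 before pairing, the log2 odds ratio was 0.26 (0.16 to 0.36). With a cut to a fold of at least 4 the interval included no difference (0.046, −0.18 to 0.27). At least 10 CpG dinucleotides, the density typical of CpG islands, were found in 19.9% of BRG1-only and 12.0% of BAF155-only peaks (odds ratio 1.82, 1.72 to 1.93), against 33.5% of BRG1 with BAF155 and 33% of BAF155 with BRG1. BRG1-only and BRG1 with BAF155 differed less in GC. Under 250 bp the shares with at least 50% GC were 56.1% and 55.3%, and among peaks of 250 to 500 bp the log2 odds ratio was 0.056 (−0.032 to 0.14), against −0.35 over all widths.

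Motif matches in the same 200 bp differed in composition as well. All 12 motifs were searched on both strands. The SOX motif was read as CATTGT, with CTTTGT allowed as its other form, and the octamer as ATTTGCAT. The KLF motif was GGGNGNGGC, and the TFAP2 motif was GCCNNNGGC, with N for any base. For ETS factors the letters were CCGGAAGT, for NRF1 they were GCGCANGCG, and for YY1 they were AAGATGGCG. For TEAD factors the letters were CATTCCA, for GATA factors AGATAAG, for AP-1 they were TGANTCA, and for nuclear receptors the single element AAGGTCA was used. The core of the CTCF motif completed the set. Matches of different motifs may overlap, a match names a family rather than a factor, and it describes the sequence, not binding. The 200 bp cover less of a wide peak than of a narrow one. Concordant peaks were wider, and the part of this in the motif contrasts was not tested.

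The CTCF motif was enriched in BRG1-only peaks. CTCF is the insulator protein that anchors chromatin loops together with cohesin. A match was found in 350 BRG1-only peaks (2.14%, interval 1.92 to 2.37%), in 0.925% of BRG1 with BAF155, in 0.863% of BAF155-only and in 0.766% of BAF155 with BRG1 peaks, and in 1.03% of all peaks of both lists. The odds ratio was 2.34 (2.02 to 2.71) for BRG1-only against BRG1 with BAF155 and 2.51 (2.10 to 3.01) against BAF155-only. For BAF155-only against BAF155 with BRG1 it was 1.13 (0.939 to 1.35), an interval that includes 1. Windows 2 kb to either side of BRG1-only peaks held a match in 0.135%. CTCF matches were more frequent at the midpoint of narrow peaks, at 3.63% of BRG1-only peaks under 250 bp against 2.32% of BRG1 with BAF155. From 500 bp up, where the window is a smaller part of the peak, the order turned, at 0.0746% and 0.251%. The BRG1-only peaks with a match had a median width of 221.5 bp, 8.29% of them overlapped a naïve BRM peak and 37.4% a primed BAF155 peak, against 3.14% and 22.7% of all BRG1-only peaks.

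BAF155-only peaks held more AP-1, GATA and TEAD matches. AP-1 (FOS and JUN), GATA and TEAD factors act mainly at enhancers, GATA and TEAD members among them in trophoblast. AP-1 matches were found in 8% of BAF155-only and 6.11% of BAF155 with BRG1 peaks (odds ratio 1.34, interval 1.25 to 1.42), and in 5.55% of BRG1-only peaks (0.676, 0.622 to 0.735, for BRG1-only against BAF155-only). GATA matches were found in 3.6% of BAF155-only, 2.30% of BAF155 with BRG1 and 2.40% of BRG1-only peaks. The GATA odds ratio for BAF155-only against BAF155 with BRG1 was 1.59 (1.44 to 1.75). The GATA contrast of BRG1-only with BAF155-only changed sign (log2 odds ratio 0.33, −0.33 to 0.98) with both lists cut to a fold of at least 4 before pairing. TEAD matches were found in 5.88% of BAF155-only, 4.23% of BAF155 with BRG1 and 4.78% of BRG1-only peaks. The shares over all peaks of both lists were 6.32% for AP-1, 2.55% for GATA and 4.65% for TEAD, and the windows 2 kb away from BAF155-only peaks held 5.74%, 2.25% and 3.65%. Outside promoters the AP-1 share was still 8.49% of BAF155-only against 7.62% of BAF155 with BRG1 and 6% of BRG1-only, and the GATA share 3.8% against 3.04% and 2.69%. From 500 bp up, TEAD matches stood at 4.63% of BRG1-only and 4.2% of BAF155-only peaks, the other way round than over all widths. With both lists cut to −log10 q of at least 3 before pairing, the intervals of AP-1, GATA and TEAD for BAF155-only against BAF155 with BRG1 included no difference.

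KLF, TFAP2 and NRF1 matches were lower in both discordant groups. KLF matches, of the family that includes the naïve factors KLF4 and KLF17, were found in 19.9% of BRG1 with BAF155, 13.8% of BRG1-only, 19.8% of BAF155 with BRG1 and 10.5% of BAF155-only peaks. TFAP2 matches followed the same order, at 17.4%, 11.6%, 16.9% and 10.2%, and NRF1 matches at 1.86%, 0.948%, 1.71% and 0.668%. With both lists cut to a fold of at least 4 before pairing, the log2 odds ratios of KLF, TFAP2 and NRF1 turned to between 0.16 and 0.62 in both discordant groups, with intervals that included 0 for KLF in BAF155-only and for NRF1 in both, and most peaks then called discordant had a partner in the whole lists. All 3 are rich in G and C, and over all widths the GC content of the groups had the same order. Under 250 bp, 56.1% of BRG1-only and 55.3% of BRG1 with BAF155 peaks had at least 50% GC. In that class KLF matches stood at 13.2% and 14.8%, and TFAP2 matches at 11.7% and 14.5%. Outside promoters KLF matches stood at 13.6% of BRG1 with BAF155 and 12.2% of BRG1-only, and at 13.3% of BAF155 with BRG1 and 8.98% of BAF155-only. TFAP2 matches there stood at 12.0% and 9.98%, and at 11.6% and 9.05%, so the BRG1-only differences were smaller than over all peaks. The parts of GC content and of promoter position in these shares were not tested. KLF, TFAP2 and NRF1 matches stood in 17.4%, 15.2% and 1.48% of all peaks of both lists. Octamers were found in 2.73% of BRG1 with BAF155, 2.89% of BRG1-only, 2.76% of BAF155 with BRG1 and 2.38% of BAF155-only peaks, and BRG1-only exceeded BAF155-only (odds ratio 1.22, 1.07 to 1.39), where all peaks stood at 2.70%. SOX matches were slightly more frequent in both discordant groups (21.6% and 22.2%, against 19.7% and 20.0%, and 20.5% of all peaks), with the 2 kb windows at 21.5% to 22.5%. The SOX order turned among peaks of 250 to 500 bp (log2 odds ratios −0.078 for BRG1-only and −0.026 for BAF155-only) and with both lists cut to −log10 q of at least 3 before pairing (−0.026 and −0.12). Over all peaks, matches to the other 3 motifs stood at 0.657% for ETS, 0.320% for YY1 and 3.47% for the nuclear receptor element. Among these, ETS was lower in BAF155-only than in BAF155 with BRG1 (odds ratio 0.763, 0.615 to 0.947), the nuclear receptor element was higher (1.22, 1.12 to 1.34), and YY1 was higher in BRG1-only than in BAF155-only (1.54, 1.06 to 2.23).

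**Figure D3:**
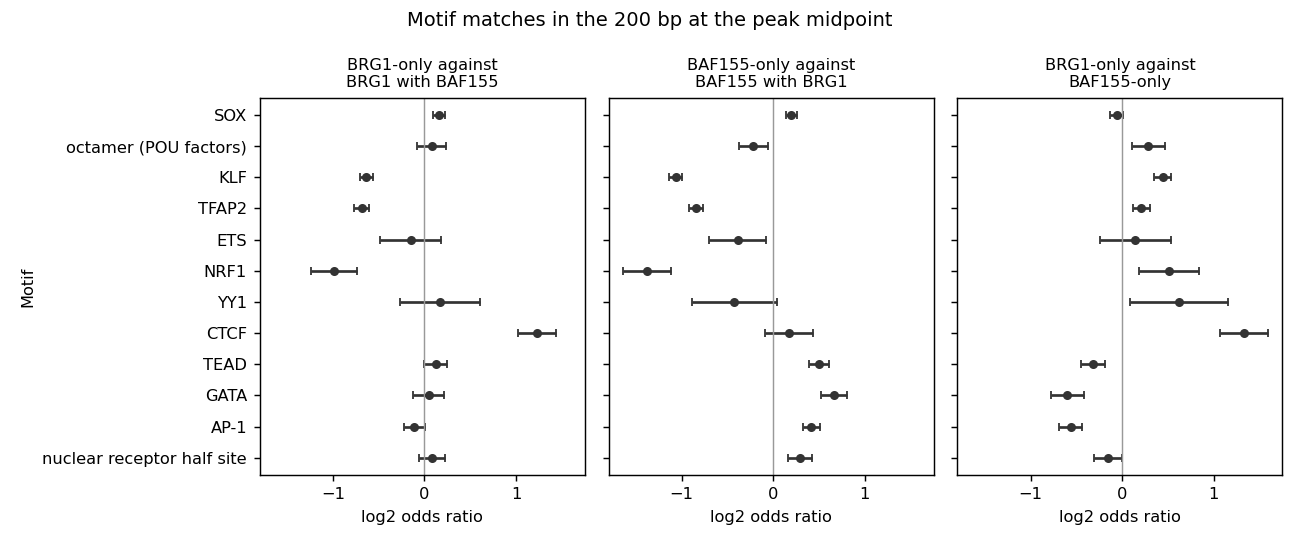
Log2 odds ratio of a motif match in the 200 bp at the peak midpoint for 12 motifs in 3 contrasts, with Woolf 95% intervals; values right of 0 mean more matches in the first group named. CTCF stands right of 0 in BRG1-only against both other groups, and TEAD, GATA and AP-1 stand right of 0 in BAF155-only against BAF155 with BRG1.

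The second ATPase was largely missing from discordant peaks. Naïve BRM peaks overlapped 34.4% of BRG1 with BAF155 and 3.14% of BRG1-only peaks (odds ratio 0.0619, interval 0.0565 to 0.0677), and 34.7% of BAF155 with BRG1 and 4.43% of BAF155-only peaks (0.0872, 0.0814 to 0.0934). Of the 17413 BRM peaks, 86.3% met a concordant peak, 5.15% met only a BAF155-only peak, 2.75% only a BRG1-only peak and 5.65% neither. BAF155-only peaks carried BRM more often than BRG1-only peaks did (odds ratio of BRG1-only against BAF155-only 0.699, 0.626 to 0.780), but the interval included no difference when 50% of both peaks was required (log2 odds ratio 0.030), when all peaks were set to 500 bp (0.056), and among peaks of the whole-list groups with −log10 q of at least 3 (−0.32) or a fold of at least 4 (−0.090). Wide discordant peaks were no exception, as from 500 bp up BRM met 3.51% of BRG1-only and 5.77% of BAF155-only peaks, against 42.4% and 42.3% of their concordant counterparts. Above the median q the shares were 6.40% and 8.49%, against 47.1% and 47.3%.

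SOX2 and the primed lists also met concordant peaks more often than discordant ones, and unlike BRM they met BRG1-only peaks more often than BAF155-only peaks. The odds ratio of BRG1-only against BAF155-only was 1.45 (interval 1.05 to 2.02) for naïve SOX2, 1.41 (1.27 to 1.57) for primed BRG1 and 1.27 (1.21 to 1.34) for primed BAF155. This contrast was not held in all settings. For SOX2 the interval included no difference with both lists held to the same number of peaks (log2 odds ratio 0.46, −0.007 to 0.93). For both primed lists together it did so with a fold of at least 4 before pairing (0.16, −0.064 to 0.38). In the whole-list groups of that fold the sign turned. Naïve SOX2 peaks overlapped 77 BRG1-only peaks (0.471%) and 68 BAF155-only peaks (0.324%), against 3.90% and 3.89% of their concordant counterparts. The SOX2 order turned with both lists cut to a fold of at least 4 before pairing (log2 odds ratios of 1.34 and 0.41), a cut after which 89.9% of BRG1-only and 89.0% of BAF155-only peaks had a partner in the whole lists. Both naïve SOX2 lists held the same coordinates and were used once. Primed BAF155 peaks overlapped 22.7% of BRG1-only and 18.7% of BAF155-only peaks, against 51.6% and 51.7%. Primed BRG1 peaks overlapped 4.76% of BRG1-only and 3.41% of BAF155-only peaks, against 22.3% of either concordant group. All 4 groups met primed BAF155 more often than primed BRG1, and the primed BAF155 list was the longer one, with 58352 peaks against 15611.

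**Figure D4:**
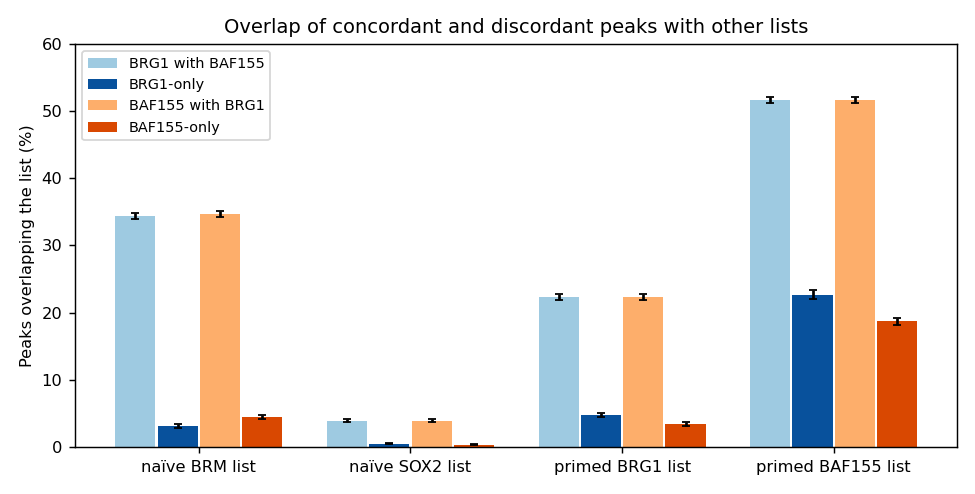
Percentage of the 4 groups of naïve peaks that overlap the naïve BRM, naïve SOX2, primed BRG1 and primed BAF155 lists, with exact 95% intervals. Both concordant groups (pale bars) stand at 34.4% and 34.7% for BRM, while BRG1-only stands at 3.14% and BAF155-only at 4.43%, and the concordant groups are higher for each of the 4 lists.

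Of the 5 BRG1-only peaks of highest fold 4 lay in introns and 1 in an exon. Besides AGAP1 and HMGB4, these peaks lay at ZDHHC16 (4.49), at an unnamed protein-coding gene (ENSG00000267740, 4.46) and at PPP4R4 (4.45). None of these 5 overlapped a primed BRG1 or BAF155 peak, and the ZDHHC16 peak alone overlapped a naïve BRM peak. The nearest BAF155 peak was between 959 bp (ZDHHC16) and 25980 bp (HMGB4) away. Besides CAMTA1 and LRRN2, the BAF155-only peaks lay at DGLUCY (5.75), PPP1R26 (4.79) and COL16A1 (4.73). The CAMTA1 and LRRN2 peaks overlapped a primed BAF155 peak and the DGLUCY peak a naïve BRM peak, and only the PPP1R26 peak was at a promoter. The concordant regions at S100A7A, CXXC5, TAFA4, CADM3 and POU2F2, with BRG1 folds of 8.19 to 10.1, each overlapped naïve BRM, primed BRG1 and primed BAF155 peaks, and none of them was at a promoter.

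Peaks were assigned to the protein-coding gene with the nearest TSS within 20 kb. By this rule 51.1% of BRG1-only and 53.1% of BAF155-only peaks had a gene, against 62.8% of either concordant group. A BRG1-only peak was assigned to 31.3% of 19626 protein-coding genes, a BAF155-only peak to 36.4% and a concordant peak to 66%. Of the 10170 genes with a discordant peak, 7535 also had a concordant one, 3102 had both discordant kinds, 3035 had BRG1-only without BAF155-only and 4033 the reverse. ABR was the only gene among both the 6 with the most BRG1-only and the 6 with the most BAF155-only peaks. Over all genes the counts of both kinds had a Spearman correlation of 0.235. The genes named next are long, from 79.4 kb (ADA2) to 522 kb (RBFOX3), against a median of 27.3 kb for all protein-coding genes. The part of gene length in their counts was not tested. RBFOX3, a neuronal splicing regulator, had 10 BRG1-only and 1 BAF155-only peak, and MACF1, a cytoskeletal linker, 9 and 3. ADA2, an extracellular adenosine deaminase, had 7 and 4. CTNNA1, which encodes alpha-catenin, had 10 BAF155-only and 1 BRG1-only peak, and TNS3, a tensin, 11 and 3. GAS7 and PACSIN2 each had 10 BAF155-only and 4 BRG1-only peaks, and SEPTIN9 10 and 6. ABR had 14 BAF155-only and 8 BRG1-only peaks and RERE 8 of each, so for these genes both kinds were frequent. Each of these genes also had a concordant peak at a start site.

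In the lists of naïve pluripotency and primed marker genes more members had a BRG1-only than a BAF155-only peak, where over all protein-coding genes the shares were 31.3% and 36.4%. These and the following lists are given as counts with no test, to be read against those shares. Of 21 naïve pluripotency genes 14 had a BRG1-only and 8 a BAF155-only peak (66.7% and 38.1%), and 18 had a concordant peak. ESRRB, an orphan nuclear receptor of mouse naïve cells, had 6 BRG1-only and 0 BAF155-only peaks, with folds up to 3.59, beside 3 concordant BRG1 peaks. FGF4 had 3 and 0, and TBX3 had 3 and 2, whereas KLF4 went the other way with 2 and 4. Of 16 core pluripotency genes 9 had a BRG1-only and 8 a BAF155-only peak, and all 16 had a concordant promoter peak. TRIM71, an RNA-binding regulator of stem cells, had 7 and 2, UTF1 3 and 0, L1TD1 2 and 1, and NANOG 1 and 2. Of 14 primed marker genes 12 had a BRG1-only and 4 a BAF155-only peak (85.7% and 28.6%). SALL2 had 3 BRG1-only peaks, 2 of them at its promoter, and 0 BAF155-only peaks, OTX2 had 1 and 3, FGF2 1 and 2, and DUSP6 1 and 1. With both lists cut to −log10 q of at least 3 before pairing, 5 naïve pluripotency genes had each discordant kind and 0 primed markers had a BRG1-only peak, and most of the peaks then called discordant had a partner in the whole lists.

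Lineage genes were mixed in their balance of the discordant kinds. The shares of genes with a BRG1-only and a BAF155-only peak were 60% and 66.7% for trophoblast and 58.3% and 33.3% for endoderm. For mesoderm they were 50% and 66.7% and for neuroectoderm 62.5% and 68.8%, against 31.3% and 36.4% of all protein-coding genes. Of 15 trophoblast genes 9 had a BRG1-only and 10 a BAF155-only peak, with 12 and 24 peaks. KRT7 had 2 BRG1-only and 4 BAF155-only peaks, TFAP2A 1 and 4, MSX2 1 and 3, and GCM1, a factor of trophoblast fusion, 0 and 4 with a BAF155-only peak as the one kind at its promoter. Of 12 endoderm genes 7 and 4 had the respective kinds, and GATA4 held 5 BRG1-only and 0 BAF155-only peaks, EOMES 2 and 0, and PDGFRA 1 and 1. Of 12 mesoderm genes 6 and 8 did, with FOXF1 at 6 and 1, MESP1 at 0 and 2, GSC at 1 and 1, and EVX1 at 3 and 0 with no concordant peak at all. Of 16 neuroectoderm genes 10 and 11 did. POU3F2 had 3 BRG1-only peaks, 1 of them at its promoter, and 1 BAF155-only peak, NES 3 and 2, and EMX2 and SIX3 2 of each.

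Genes of BAF subunits and of DNA methylation held more BAF155-only than BRG1-only peaks, as did all protein-coding genes together with 11124 against 8360. Of 30 BAF subunit genes 14 had a BRG1-only and 18 a BAF155-only peak (46.7% and 60%), with 25 and 48 peaks. SMARCA2, the gene of BRM itself, had 0 BRG1-only and 7 BAF155-only peaks beside 6 concordant BRG1 peaks, ARID1B had 2 and 8, BCL11A 3 and 7, and SMARCA4, the gene of BRG1, 3 and 4. Of 14 DNA methylation genes 3 had a BRG1-only and 9 a BAF155-only peak (21.4% and 64.3%), with 5 and 21 peaks. DNMT1, the maintenance methyltransferase, had 0 and 7, MBD3 0 and 3, and DNMT3A 2 and 3, whereas DNMT3B, a de novo methyltransferase, had 2 and 0. Both lists hold long genes, with median lengths of 53.3 and 66.1 kb against 27.3 kb for all protein-coding genes, and the part of gene length in these counts was not tested.

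Signalling pathways differed in their balance of the discordant kinds. BRG1-only and BAF155-only peaks numbered 3 and 12 for NODAL, 6 and 12 for LIF, 33 and 35 for WNT, and 27 and 19 for FGF genes. The shares of genes were 20% and 33.3% for NODAL, 45.5% and 54.5% for LIF, and 60% and 56.7% for WNT. Both were 66.7% for FGF, against 31.3% and 36.4% of all protein-coding genes. Of 15 NODAL pathway genes 3 had a BRG1-only and 5 a BAF155-only peak, and 14 had a concordant one. SMAD7, the inhibitory SMAD, had 0 and 4, SMAD3 1 and 3, NODAL 1 and 2, and GDF3 1 and 1. Of 11 LIF pathway genes 5 and 6 had them, with PIM3 at 0 and 4, LIF at 0 and 2, STAT3 at 2 and 2, and JAK1 at 1 and 1. Of 30 WNT pathway genes 18 and 17 did, with WNT5B at 4 and 5, WNT3 at 3 and 5, TCF7L2 at 3 and 3, and GSK3B at 1 and 4. Of 21 FGF pathway genes 14 had each kind. ETV4, a transcriptional target of FGF signalling, had 7 BRG1-only and 3 BAF155-only peaks, ETV5 2 and 1, and FGFR1 2 and 2.

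Among large families, 18 of 39 HOX genes had a BRG1-only and 11 a BAF155-only peak (46.2% and 28.2%, against 31.3% and 36.4% of all protein-coding genes), and 6 HOX promoters held only a BRG1-only peak against 0 only a BAF155-only one. Over all protein-coding genes such promoters made up 5.75% and 5.50%. HOXD3 had 4 and 1, HOXB2 and HOXC5 2 and 1, and HOXB1 2 and 2. Of 53 clustered protocadherin genes 10 and 5 had the respective kinds, with PCDHB2 and PCDHGA5 at 2 and 0, PCDHA1 at 1 and 0 and PCDHB1 at 1 and 1. The protocadherin genes share exons and start close together, so the nearest TSS assigns their peaks with little certainty. Of 240 zinc finger genes of chromosome 19, 109 (45.4%) and 85 (35.4%) had them. ZNF611 had 5 and 4, ZNF444 5 and 2 with no concordant peak, ZNF98 3 and 4, and ZNF83 4 and 2. Of 84 ribosomal protein genes 24 (28.6%) and 32 (38.1%) did, with RPL3 and RPLP1 at 1 and 3, RPS14 at 3 and 1 and RPS15 at 2 and 2. Of 391 olfactory receptor genes 33 (8.44%) and 25 (6.39%) did, with OR6J1 at 3 and 0, OR10P1 at 2 and 0, OR1M1 at 1 and 2, and OR10G3 at 1 and 1.

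Discordant peaks followed concordant ones over the chromosomes. The densities of discordant and concordant peaks per Mb had Spearman correlations of 0.899 for BRG1 and 0.973 for BAF155 over 23 chromosomes, which share both libraries. Across these the discordant share ran from 26.1% to 39.7% for BRG1 and from 27.2% to 35.6% for BAF155, with medians of 27.7% and 33.8%. BRG1-only peaks were most frequent on chromosome 21 (280 of 706 peaks, 39.7%, interval 36.0 to 43.4%) and X (585 of 1635, 35.8%, 33.5 to 38.2%), and least on chromosomes 11 (26.1%) and 15 (26.2%). BAF155-only peaks were most frequent on chromosomes 3 (35.6%) and 1 (35.5%) and least on 19 (27.2%, 25.9 to 28.6%) and X (31.2%, 28.9 to 33.6%). Chromosome X thus stood high for BRG1-only and low for BAF155-only. It held 3.58% of BRG1-only and 2.53% of BRG1 with BAF155 peaks (odds ratio 1.43, 1.29 to 1.58), and 2.29% of BAF155-only and 2.56% of BAF155 with BRG1 peaks (0.893, 0.8 to 0.996). Chromosome 19 had the densest discordant peaks of both kinds, at 19.3 BRG1-only and 19.6 BAF155-only peaks per Mb.

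**Figure D5:**
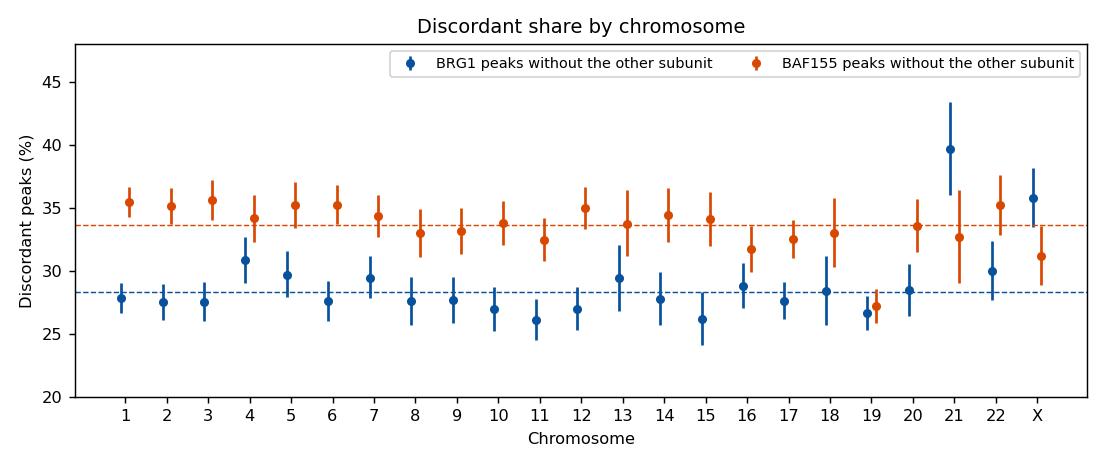
Discordant share (%) of the BRG1 (blue) and BAF155 (orange) peaks of each chromosome with exact 95% intervals; dashed lines mark 28.3% and 33.6%, the shares over all chromosomes, and the vertical axis starts at 20%. Chromosomes 21 and X stand above the BRG1 line at 39.7% and 35.8%, and chromosome 19 stands below the BAF155 line at 27.2%.

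On chromosome 21 the excess lay partly in 2 neighbouring windows of 1 Mb near the centromere. The window chr21:10000001-11000000 held 34 BRG1-only, 0 BAF155-only and 2 BRG1 with BAF155 peaks, and chr21:9000001-10000000 held 31, 3 and 9. Without them the BRG1-only share of chromosome 21 was 34.1% (30.4 to 38.0%). The windows next in this order, chr4:49000001-50000000 with 21 BRG1-only and 0 BAF155-only peaks and chr22:11000001-12000000 with 17 and 1, also lie near centromeres. All 4 windows had 0 primed BRG1 and 0 primed BAF155 peaks and no protein-coding gene within 20 kb of a BRG1-only peak. Between 9 and 11 BRG1-only peaks of each had mostly repeated sequence at the midpoint, that is, over 50% of the 32-mers of the central window occur more than once in hg38. Over the genome this applied to 13.2% of BRG1-only and 12.2% of BAF155-only peaks, against 8.11% and 8.30% of their concordant counterparts, and 14196 BRG1-only and 18400 BAF155-only peaks remained without such peaks.

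The windows with the greatest excess of BAF155-only peaks held protein-coding genes. The window chr6:35000001-36000000 held 42 BAF155-only and 11 BRG1-only peaks, 4 of the former at FKBP5, a glucocorticoid-responsive chaperone, and 3 each at PPARD, SCUBE3, ANKS1A and TCP11. The window chr20:50000001-51000000 held 39 and 10, with 4 of the former at RIPOR3. The window chr10:12000001-13000000 held 32 and 4, with 5 at CDC123, and chr11:9000001-10000000 38 and 10, with 6 of its BAF155-only peaks at IPO7, an importin. Mostly repeated sequence was found at 8, 4, 3 and 13 of the BAF155-only peaks of these windows, in the order given. The windows held between 28 and 63 BAF155 with BRG1 peaks, 12 to 47 BRM peaks and 18 to 51 primed BAF155 peaks. These windows were picked for their counts and no test was made on them.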

How the data were processed

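ChIP-seq peak lists of naïve BRG1 and BAF155, with lists of naïve BRM and SOX2 and primed BRG1 and BAF155 for comparison, were analysed as deposited. Per the submitters' processing notes, reads were checked with FastQC 0.10.1, aligned with Bowtie2 2.3.4 and handled with SAMtools 0.1.19, and the study's methods give MACS2 broad peaks against input. The authors' deposited columns are a score, a fold enrichment over input and −log10 p- and q-values, and were used only to rank, filter and describe peaks. The series lists 1 BRG1 and 1 BAF155 library for each state, so no replicates of them were available. Both naïve SOX2 lists held 1 set of coordinates. All coordinates lie within hg38, and genes are from GENCODE release 44.

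Peaks were paired at 25% coverage of either peak, and 31 BRG1 peaks off chromosomes 1 to 22 and X were left out. Features, GC, CpG and motifs were read at the midpoint or in the 200 bp around it. A gene's promoter state used any of its start sites, and peak counts per gene used the nearest protein-coding start site within 20 kb. Shares have exact 95% intervals and odds ratios Woolf intervals. Other overlap rules, strength cuts, widths, distances and chromosomes were tried as alternatives. Named were the 5 peaks of highest fold per group, the 6 genes with the most peaks of each discordant kind, up to 4 members per gene list with the most discordant peaks, and the 2 highest and 2 lowest chromosomes. The groups and lists were chosen with earlier results of these data known. Python 3.11.15 with numpy 2.4.6, scipy 1.17.1, pandas 2.3.3 and matplotlib 3.10.9 was used, and the pairing, interval and nearest-gene steps were tested on simulated data. The sequence of 1 named peak and the values of 1 gene list member are not reported here.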

Additional observations from a re-analysis of the deposited data

How the results depend on the processing

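Values are log2 odds ratios of the discordant group against its concordant counterpart, or of BRG1-only against BAF155-only (given as between them), for a promoter position, a gene within 20 kb, a GC content of at least 50%, a width of at least 500 bp, an overlap with another list or a motif. Of the results on groups, features and other lists, 281 values were kept under an alternative. Kept means the same direction and side of the interval, or for counts a value within 1.5 times. Of the rest 26 kept only the direction, 15 changed sign and 17 counts moved. Of the motif values 391 kept their call or their lack of one, 53 lost and 34 gained a call and 26 changed sign. Changes of sign were counted and are listed only for values whose main interval excluded 0. With 50% of both peaks required for a pair, there were 30054 BRG1-only peaks and 34539 BAF155-only peaks. The sign turned for BRM (between them 0.030) under the same setting. The interval included 0 for gene (between them −0.020) under the same setting. With both lists cut to −log10 q of at least 3 before pairing, there were 5724 BRG1-only peaks, 7261 BAF155-only peaks and 10338 concordant regions. The sign turned for promoter (BRG1-only 0.16, BAF155-only 0.11), gene (BRG1-only 0.10, BAF155-only 0.20), GC (BRG1-only 0.15), SOX (BRG1-only −0.026, BAF155-only −0.12), octamer (BAF155-only 0.027), KLF (BRG1-only 0.055, BAF155-only 0.11, between them −0.026), ETS (BAF155-only 0.29) and NRF1 (BRG1-only 0.45, BAF155-only 0.44) under the same setting. In this case the interval included 0 for promoter (between them 0.041), gene (between them −0.094) and GC (BAF155-only −0.056). With both lists cut to a fold of at least 4 before pairing, there were 1222 BRG1-only peaks, 1443 BAF155-only peaks and 1702 concordant regions. The sign turned for promoter (between them −0.064), gene (BRG1-only 0.075, BAF155-only 0.046, between them 0.028), SOX2 peaks (BRG1-only 1.34, BAF155-only 0.41), octamer (BAF155-only 0.11), KLF (BRG1-only 0.37, BAF155-only 0.16), TFAP2 (BRG1-only 0.37, BAF155-only 0.39), NRF1 (BRG1-only 0.62, BAF155-only 0.60), GATA (between them 0.33) and nuclear receptor element (BAF155-only −0.16) under the same setting. The interval included 0 for promoter (BRG1-only −0.096, BAF155-only −0.034), width (BRG1-only −0.11, BAF155-only −0.19, between them −0.032), GC (between them 0.046) and primed BAF (between them 0.16) under the same setting. With both lists held to the same number of peaks by score, the interval included 0 for SOX2 peaks (between them 0.46). With all peaks set to 500 bp, the sign turned for BRM (between them 0.056). In this case the interval included 0 for gene (between them −0.032). With peaks of 250 to 500 bp only, there were 6362 BRG1-only peaks, 8690 BAF155-only peaks and 19331 concordant regions. The sign turned for GC (BRG1-only 0.056) and SOX (BRG1-only −0.078, BAF155-only −0.026) under the same setting. The interval included 0 for gene (BAF155-only −0.074, between them −0.080) under the same setting. Without mostly repeated peaks, the interval included 0 for gene (between them −0.053). With the groups of the whole lists and only peaks with −log10 q of at least 3, there were 1107 BRG1-only peaks, 1477 BAF155-only peaks and 20691 concordant regions. The sign turned for octamer (BAF155-only 0.019), ETS (BAF155-only 0.12) and NRF1 (between them −0.39) under the same setting. The interval included 0 for promoter (between them 0.18) and BRM (between them −0.32) under the same setting. With the groups of the whole lists and only peaks with a fold of at least 4, there were 124 BRG1-only peaks, 159 BAF155-only peaks and 4082 concordant regions. The sign turned for primed BAF (between them −0.42), SOX (BRG1-only −0.073), TFAP2 (between them −0.80) and NRF1 (BRG1-only 0.18) under the same setting. In this case the interval included 0 for promoter (between them 0.20), width (between them −0.85), gene (between them −0.23), GC (BRG1-only −0.049), BRM (between them −0.090) and SOX2 peaks (BRG1-only −2.46, BAF155-only −3.37, between them 1.95). When lists are cut before pairing, 80.7% (BRG1) and 79.7% (BAF155) of the peaks then called discordant at −log10 q of at least 3 had a partner in the whole lists, and 89.9% and 89.0% at a fold of at least 4. The CTCF value of BRG1-only against its counterpart stayed above 0, from 0.47 to 2.42, in the alternatives run. Settings on the whole-list groups and on repeated peaks, and the values of motifs, gene lists and chromosomes under each setting, were added after seeing the data. The cause of the other changes was not tested. Counts per gene list moved by more than 1.5 times in 130 of their values and chromosome shares moved in 103 of theirs. No paired analysis was possible because each list came from 1 library, and no library could be left out. Read depth was not used, so how far depth sets either discordant share was not tested.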
